A study of Mus musculus with 11 samples.

Results

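Striatal projection neurons that carry the dopamine D2 receptor were identified among single nuclei of 11 mouse brains, and their RNA was compared between genotypes and with that of neighbouring projection neurons that carry the D1 receptor. The nuclei were chosen by unique molecular identifier (UMI) counts, each of which stands for 1 captured RNA molecule. A nucleus was taken when it held 300 to 8000 genes, at most 5% mitochondrial UMIs, at most 1 UMI of Slc17a7 (the vesicular glutamate transporter of cortical excitatory neurons), at least 4 UMIs of Rgs9 and Rarb together (a G-protein regulator and a retinoic acid receptor of striatal neurons), at least 2 UMIs of Drd2, and more Drd2 than Drd1 UMIs. This gave 3850 Drd2 nuclei, 3.42% of the 112539 nuclei that passed the limits on genes and mitochondrial share. The same rule with the receptors exchanged gave 1027 Drd1 nuclei, which served as the closest comparison.

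The study asked how microglial NF-κB signalling modifies tau pathology, and used droplet-based single-nuclei RNA-seq (snRNA-seq) of frozen cortex with 1 library per mouse. The 4 mice labelled ikbkb+/+ (10.03, 10.03, 10.85 and 9.8 months) carried no tau transgene and are called non-transgenic. The 3 mice labelled ikbkb+/+;P301S+ (9.15, 10.03 and 10.75 months) carried human tau with the P301S mutation and are called P301S. The 2 mice labelled ikbkb-/-;P301S+ (8.39 and 9.15 months) carried this transgene with deletion of IKKβ, the kinase that switches NF-κB on, and are called knockout. The 2 mice labelled ikbkbCA;P301S+ (10.85 and 9.8 months) carried the transgene with a constitutively active IKKβ and are called active IKKβ. All 11 were labelled female, whereas the study's methods name male mice for RNA-seq, and the labels were followed. Per the methods, mice were given tamoxifen. The transgene is driven by the mouse prion promoter, and the IKKβ alleles are switched by Cx3cr1CreERT2, which acts in microglia and leaves 1 working copy of Cx3cr1. Neither manipulation of IKKβ was therefore aimed at the neurons described here. Mice of the ikbkb+/+ groups carried floxed alleles without Cre, so that Cre and the IKKβ change cannot be told apart. Titles further divided the mice into a floxed Ikbkb line and an active IKKβ line. Non-transgenic mice 1 and 2, P301S mice 1 and 2 and both knockout mice came from the former, and the others came from the latter.

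Striatal projection neurons are GABAergic cells that receive cortical and thalamic glutamate and midbrain dopamine. Those with Drd2 form the indirect pathway, which restrains movement, and are known for enkephalin (from Penk) and an adenosine receptor that activates cells (Adora2a). Those with Drd1 form the direct pathway and are known for substance P (from Tac1) and dynorphin (from Pdyn). The D2 receptor lowers cyclic AMP through inhibitory G proteins, whereas the Adora2a and D1 receptors raise it through the stimulatory subunits encoded by Gnal and Gnas.

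Promoters of a pair of receptors that mark these neurons are shown, Drd2 (used by the rule) and Gpr6 (not used). Each runs 5′ to 3′ on the gene's strand from 250 bases before to 50 bases after the RefSeq start on GRCm38.p6. The Drd2 window lies at chr9:49340153-49340452 on the plus strand, and that of Gpr6, an orphan receptor that raises cyclic AMP, at chr10:41072241-41072540 on the minus strand. Capitals mark the cyclic AMP response element TGACGTCA, which reads the same on both strands.
Drd2: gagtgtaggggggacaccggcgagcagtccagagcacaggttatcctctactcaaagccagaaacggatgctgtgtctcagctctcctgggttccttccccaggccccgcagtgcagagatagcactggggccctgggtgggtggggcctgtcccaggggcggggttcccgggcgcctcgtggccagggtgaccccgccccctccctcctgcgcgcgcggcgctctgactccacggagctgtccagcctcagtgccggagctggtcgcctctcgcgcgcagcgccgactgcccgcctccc
Gpr6: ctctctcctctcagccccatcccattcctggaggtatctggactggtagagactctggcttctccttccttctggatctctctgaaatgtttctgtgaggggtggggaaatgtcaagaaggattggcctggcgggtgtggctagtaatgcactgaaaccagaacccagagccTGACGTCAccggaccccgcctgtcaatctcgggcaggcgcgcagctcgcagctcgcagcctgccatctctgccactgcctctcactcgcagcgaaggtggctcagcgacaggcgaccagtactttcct
The element was present in 1.79% of all 32851 promoter windows. It was held by 1 of 6 windows of indirect pathway genes (Gpr6), by none (0) of 11 windows of direct pathway genes, and by 3 of 28 windows of 17 activity-induced genes (Scg2, Btg2 and Dusp1). A match is a description of the letters and not of a bound site.

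The labels name cortex as the tissue, whereas the Drd2 nuclei carried the markers of striatum. Adora2a, which the rule did not use, was detected in 76.5% of Drd2 nuclei, in 1.27% of Drd1 nuclei and in 1.04% of 8642 cortical excitatory nuclei. Penk was detected in 75.2% of Drd2, 8.96% of Drd1 and 3.19% of excitatory nuclei. Conversely, Tac1 was detected in 3.30% of Drd2 and 48.4% of Drd1 nuclei, and Pdyn in 0.961% and 22.6%. Tac1 and Pdyn were detected in 1.21% and 0.984% of excitatory nuclei. The excitatory nuclei were deeper (median 13261 UMIs, against 9972 in Drd2 and 11065 in Drd1 nuclei), and free RNA and low expression cannot be told apart in their shares. Adora2a and Penk, genes of striatal D2 neurons that the rule did not use, were therefore common in Drd2 nuclei, and the direct pathway genes Tac1 and Pdyn were rare.

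Drd2 nuclei held a median of 6 Drd2 UMIs and at most 35. Of the 3850 nuclei, 3774 held 0 Drd1 UMIs, 63 held 1 and 13 held 2 or more. At the limit on Drd2, the 365 nuclei with 2 UMIs had Adora2a in 57.0%, and the 366 just outside with 1 UMI had it in 39.1%. At the limit on striatal genes, only 21 nuclei lay just inside and 36 just outside, with Adora2a in 9.52% and 11.1%. At the limit on Slc17a7, 391 nuclei just inside and 80 just outside had Adora2a in 74.9% and 68.8%. The edge on the striatal genes thus held few nuclei with a Drd2 profile, whereas most nuclei at the edge on Slc17a7 had Adora2a on both sides. Of 11985 nuclei that passed the limits on Slc17a7 and the striatal genes, 7107 had fewer than 2 UMIs of either receptor and were assigned to neither kind. This is a limit of counts, and they may hold projection neurons of both kinds. Among them are the 366 nuclei with 1 Drd2 UMI, of which 39.1% had Adora2a. Doublet calls, barcodes that may hold 2 nuclei, marked 420 Drd2 nuclei (10.9%, against 8.42% of all nuclei). They were kept, and results that change without them are given as such. Barcodes present in more than 1 library numbered 1556 overall and 2 among the Drd2 nuclei.

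Libraries held 72007219 to 93205362 UMIs, and the sums over Drd2 nuclei of a mouse 1435060 to 8273582 UMIs. No pair of libraries of 1 genotype was alike within sampling noise. The tau transgene could not be checked from its promoter gene, because Prnp had 1 UMI in the Drd2 nuclei of non-transgenic mice and 5 in those of the 7 carriers, and an overlapping annotated transcript (Prn) shares its reads. Ikbkb, the targeted gene, was at 27.2, 35.5, 38.7 and 44.6 CPM (counts scaled to a library of 1000000 UMIs) in Drd2 nuclei of non-transgenic mice. It was at 36.1, 26.6 and 41.4 CPM in P301S, at 33.7 and 30.8 CPM in knockout and at 39.3 and 34.6 CPM in active IKKβ mice. These levels overlapped, and as Cre acts in microglia they check no label.

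The share of Drd2 nuclei varied most between the mice of the active IKKβ group. It was 2.35, 3.20, 1.501 and 3.80% in non-transgenic mice (mean 2.71% ± 1.002, SD, n = 4) and 3.33, 4.52 and 3.39% in P301S mice (3.74% ± 0.674, n = 3). It was 2.84 and 3.29% in knockout mice (3.06% ± 0.319, n = 2) and 7.33 and 1.59% in active IKKβ mice (4.46% ± 4.06, n = 2). The highest and nearly the lowest share were thus found in the same group. In the exact two-sided permutation test, p was 0.229 for P301S against non-transgenic mice, 0.2 for knockout against P301S, 0.8 for active IKKβ against P301S and 0.291 for the 7 carriers against the 4 non-transgenic mice. The smallest p that these designs allow is 0.0571 for P301S, 0.2 for knockout and 0.2 for active IKKβ, so that none of these contrasts could pass 0.05, and 0.00606 for all carriers. Over the 8 tests of shares, adjusted p-values of these exact tests were 0.533 to 0.952. Among Drd1 and Drd2 nuclei, Drd2 nuclei made up 76.6, 77.3, 80.3 and 78.5% in non-transgenic, 85.1, 85.1 and 76.2% in P301S, 75.8 and 79.3% in knockout and 78.5 and 69.5% in active IKKβ mice. Exact permutation p-values were 0.286, 0.4, 0.4 and 0.952 for the same contrasts. Since a nucleus needed 2 UMIs of a receptor, this ratio reflects how strongly each receptor is expressed as well as how many cells there were. With the rule applied after each nucleus was thinned to 2000 UMIs, the difference turned to -1.34 percentage points for P301S, 3.47 for knockout and 1.32 for active IKKβ mice, from 3.94, -4.57 and -8.14. Only 0 to 11 Drd1 nuclei per mouse were then left, and Drd2 nuclei made up 92.5 to 100%. These signs thus rest on few nuclei near the ceiling of the ratio and decide nothing about depth. How much striatum each dissection of cortex took is not given in the sources used here.

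**Figure D1:**
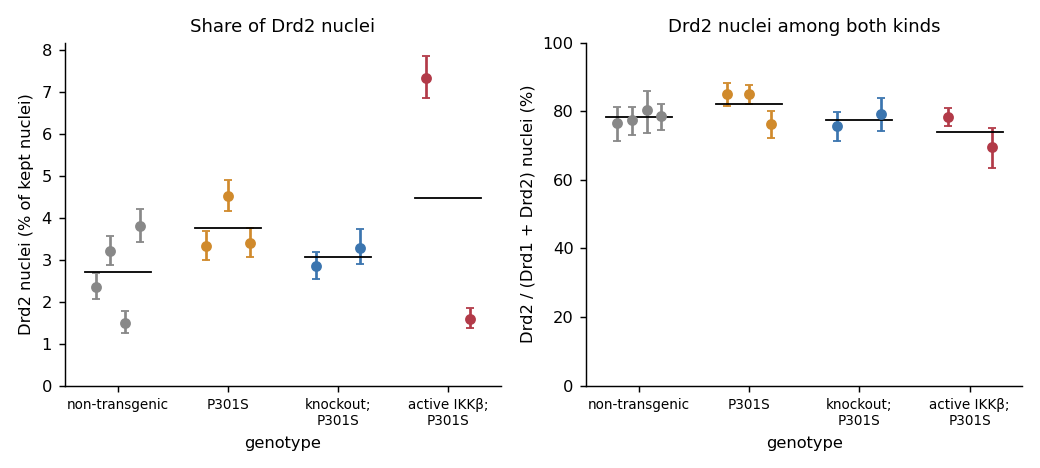
Share of Drd2 nuclei among all nuclei kept (left, percent) and among Drd1 and Drd2 nuclei together (right, percent), with 1 point per mouse and a bar at each genotype mean. The active IKKβ mice lay at 7.33% and 1.59% on the left, outside and within the range of the other genotypes.

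To describe what sets Drd2 neurons apart, the sums over Drd2 and Drd1 nuclei were compared within each of the 11 mice with edgeR's quasi-likelihood test. Of 9355 genes tested, 551 were higher (5.89%) and 617 lower (6.6%) in Drd2 nuclei, 1168 in all (12.5%), at a Benjamini-Hochberg adjusted p under 0.05. The 5 genes of the rule were left out of the calls. For orientation, Drd2 was at 680 ± 80.9 CPM in Drd2 and 2.15 ± 1.21 CPM in Drd1 nuclei (SD, n = 11), Drd1 at 2.08 ± 1.10 and 207 ± 25.9 CPM, and these values follow from the rule.

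All 8 tested members of the list of indirect pathway genes were higher in Drd2 nuclei, and each was higher in 11 of 11 mice. The median log2 fold change of the list was 4.01, against -0.00106 over all genes tested. Adora2a was at 130 to 196 CPM in Drd2 nuclei and at 0 to 4.02 CPM in Drd1 nuclei (log2 fold change 7.14 ± 0.145, SE, edgeR adjusted p = 9.82e-31). Penk was at 153 to 258 CPM against 2.77 to 18.7 CPM (4.08 ± 0.14, edgeR adjusted p = 1.12e-11). The ranges of both genes were far apart between the kinds of nucleus. Gpr6 was at 8.46 to 18.7 CPM in Drd2 nuclei and had a UMI in 0.0974% of Drd1 nuclei. Upb1, an enzyme of pyrimidine breakdown, was at 18.3 to 44.5 CPM against 0 to 2.50 CPM. Grik3, a kainate receptor subunit, was at 460 ± 60.7 against 32.5 ± 16.3 CPM, and Oprd1, the delta opioid receptor, at 97.8 ± 17.3 against 10.6 ± 5.73 CPM. Sp9, a transcription factor needed for D2 neurons, was higher by 3.402 ± 0.223, and Ptprm, a receptor phosphatase, by 2.18 ± 0.127 on the log2 scale. Ankk1, a kinase gene beside Drd2, was below the limit on low counts.

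Outside the lists, the genes most raised in Drd2 nuclei were taken among those higher in every mouse. Nt5e, the ectoenzyme that makes adenosine from AMP, was higher by 2.58 ± 0.193 on the log2 scale (60.0 ± 20.3 against 10.1 ± 6.88 CPM). Adk, the kinase that removes adenosine, was higher by 2.24 ± 0.0603 (415 ± 74.3 against 87.0 ± 12.7 CPM). Plxdc1 was higher by 2.28, Nell1 by 2.04, Fig4 by 2.00 and the netrin receptor gene Unc5d by 1.95. Among members of a list of dopamine and cyclic AMP signalling, 10 of 43 were higher and 6 lower. This count and those of the lists that follow stand beside 5.89% higher and 6.6% lower over all genes tested. Gnas, the stimulatory G-protein subunit, was at 62.6 ± 11.2 CPM in Drd2 and 28.6 ± 12.3 CPM in Drd1 nuclei (1.196 ± 0.0957). The phosphodiesterase genes Pde4b and Pde4d were higher by 0.93 and 0.68. On the other side, the D3 receptor gene Drd3 was lower by 1.54, the inhibitory subunit gene Gnai1 by 0.70 and the regulator Rgs2 by 0.73 (log2 fold changes of -1.54, -0.70 and -0.73).

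Of the list of direct pathway genes, 7 of 8 tested members were lower in Drd2 nuclei and 1 was not called (median -2.92). Tac1 was at 1.47 to 7.59 CPM in Drd2 and 50.01 to 116 CPM in Drd1 nuclei (log2 fold change -4.21 ± 0.125, edgeR adjusted p = 1.03e-22). Pdyn was at 0.301 to 2.33 against 19.0 to 40.2 CPM (-4.55 ± 0.189). Thus neither peptide gene overlapped between the kinds. The transcription factor genes Ebf1 and Isl1 differed by -5.18 ± 0.235 and -5.14 ± 0.263, with Ebf1 at 7.10 ± 4.86 CPM in Drd2 and 275 ± 68.6 CPM in Drd1 nuclei. Eya1, Sfxn1 and Reln differed by -1.64, -1.38 and -0.66. Gng2 was at 17.8 ± 4.03 against 25.6 ± 13.2 CPM and did not pass (edgeR adjusted p = 0.143). Outside the list, the growth factor gene Mdk (-4.10), Impg1 (-3.98), Zfp521 (-3.54), Sntg2 (-3.38), the channel gene Asic4 (-3.33) and Lingo2 (-2.66) were among the genes of largest difference that were lower in every mouse, as the choice required.

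**Figure D2:**
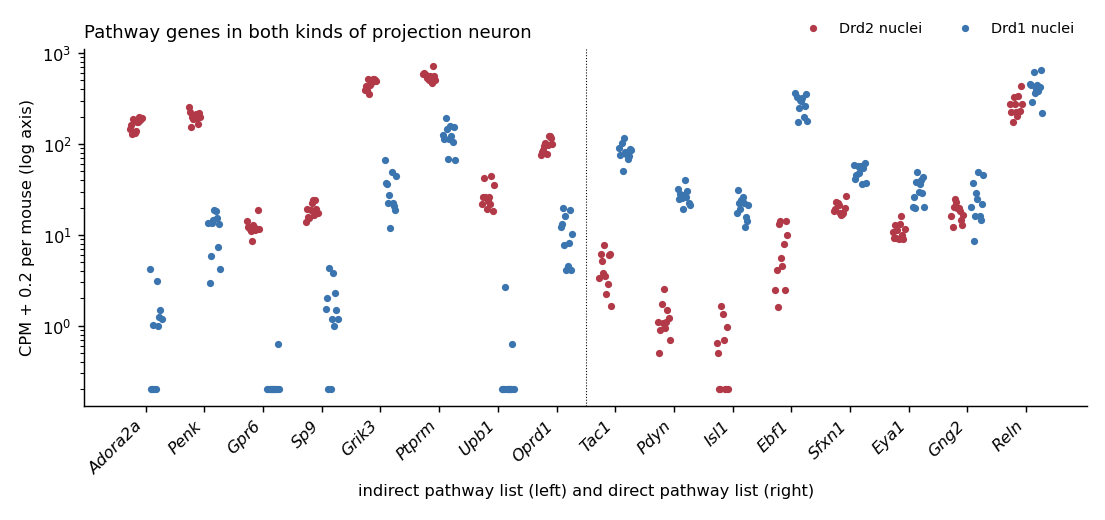
CPM on a log axis of the tested members of the indirect (left group) and direct (right group) pathway lists in Drd2 and Drd1 nuclei, with 1 point per mouse and kind of nucleus. The points of Adora2a, Penk, Tac1 and Pdyn do not overlap between the kinds, whereas those of Gng2 do.

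Genes of both kinds of projection neuron differed less. Of 22 in that list, 11 were higher and 2 lower in Drd2 nuclei (median 0.0889). Foxp1 (0.45), Six3 (0.63), Meis2 (0.35) and Gad1 (0.37) were higher, and Ppp1r1b, which encodes DARPP-32, was lower by a log2 fold change of -0.21 ± 0.0642. Foxp2 stood apart at 222 ± 56.6 CPM in Drd2 and 775 ± 130 CPM in Drd1 nuclei (-1.82 ± 0.0843). For modulatory receptors, 6 of 22 were higher, among them the muscarinic receptor gene Chrm3 (1.64 ± 0.165) and the serotonin receptor genes Htr2c (0.72) and Htr2a (0.41). Another 4 were lower, among them the kappa opioid receptor gene Oprk1 (-0.52). Ion channel genes were higher in 11 and lower in 4 of 34, with the calcium channel subunit gene Cacnb2 at 0.70, Cacna1e at 0.48 and the potassium channel gene Kcnd3 at 0.56, against -0.46 for Kcnj3 and -0.44 for Kcnj2. Of 27 glutamate receptor and scaffold genes, 5 were higher and 6 lower, and of 18 genes of GABA receptors and transport, 6 were higher and 1 lower. Of 22 genes of tau and its kinases, 2 were higher and 4 lower, and of 10 genes of NF-κB and cytokine response, none (0) was called in either direction, with 1 at an unadjusted p under 0.05.

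Compartment genes divided as well. Of 8 matrix genes, 5 were higher and 1 was lower in Drd2 nuclei, led by the calcium-binding protein gene Necab1 (1.57 ± 0.124), and of 7 patch genes, 2 were lower (Sema5b -0.65 and Lypd1 -0.41). Of 4 tested dorsal genes, 1 was lower (Wnt2 -0.71), and of 4 tested ventral genes, 2 were higher (Zfhx3 0.99 and Stard5 0.56) and 1 was lower (Wfs1 -0.66). In the list for the hybrid projection neuron, a further kind that shares features of both pathways, 4 of 6 tested genes were lower. Adarb2 was detected in 31.3% of Drd2 and 74.98% of Drd1 nuclei (-2.06 ± 0.168). Col11a1, Casz1 and Otof were the others (-1.84, -1.03 and -0.68). Drd1 nuclei were not clustered, and the part of hybrid neurons in the differences above was not tested.

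Of the 24 genes in the list of those induced by neuronal activity, 14 could be tested between Drd2 and Drd1 nuclei. None (0) of them was higher, 9 were lower and 5 were not called, against 6.6% lower over all genes, with a median log2 fold change of -0.774. Egr1, a transcription factor gene switched on within minutes of activity, was at 24.3 ± 11.8 CPM in Drd2 and 80.7 ± 35.5 CPM in Drd1 nuclei (-1.75 ± 0.189, edgeR adjusted p = 6.09e-05). Arc, which encodes a synaptic protein, was lower in 11 of 11 mice (-2.09 ± 0.289), and so was Junb (-2.16 ± 0.343). Egr4 was lower in 9 of 11 mice (-2.12 ± 0.328).

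Drd2 nuclei were not uniform. Leiden clustering gave 12 clusters, which are described by their leading genes and have no test, since the same counts formed them. Cluster 1 (981 nuclei) was led by Abi3bp, Syt9 and Kctd8, with folds of 2.20 or less. Cluster 2 (917 nuclei) was led by Cnr1, the cannabinoid receptor gene of the dorsal list, which was detected in 90.1% of its nuclei. It made up 50.1% of the Drd2 nuclei of active IKKβ mouse 1 and 5.76 to 29.3% in the other mice. Cluster 3 (498 nuclei) was led by Tll1, Htr2a and Sema5b and held the patch gene Kremen1 at 47.7 CPM. It made up 10.0 to 15.7% of each mouse, the smallest ratio of highest to lowest share among the clusters. Cluster 4 (264 nuclei) held Prkg1, Syt10, the mu opioid receptor gene Oprm1 and the ventral gene Wfs1 among its leading genes. Cluster 6 (231 nuclei) had the patch gene Kcnip1, Ntn1 and the ventral genes Stard5 and Trhr among its leading genes, and ranged from 0% in both active IKKβ mice to 27.3% in non-transgenic mouse 3. Neither compartment list was high as a whole in it, since the patch genes Lypd1 (58.9 CPM) and Nnat (124 CPM) were highest there but Kremen1 (7.18 CPM), Sema5b (58.4 CPM) and Bach2 (92.4 CPM) were below their levels in cluster 3 (47.7, 245 and 387 CPM). Of the ventral genes, Stard5, Trhr and Crym (56.5 CPM) were highest in it, Wfs1 was higher in clusters 4, 7 and 8, and Zfhx3 was at 121 CPM against 684 CPM in cluster 4 and 710 CPM in cluster 2. Cluster 7 (221 nuclei; Calcrl, Otof and Pde11a) ranged from 0.253 to 15.9%, and cluster 8 (207 nuclei; Nrp2, Drd3 and Otof) from 0.633 to 25.8%. Cluster 9 (112 nuclei) was led by Casz1, detected in 83.0% of its nuclei, and held Tac1 in 37.5%. Of the patch genes, Sema5b (403 CPM), Bach2 (723 CPM), Kcnip1 and Pou3f1 were higher in cluster 9 than in cluster 3. Kremen1 (42.6 CPM), Lypd1 and Nnat were lower. Casz1 is a gene of the hybrid list, of which Otof was at 204 CPM in cluster 9, 346 CPM in cluster 7 and 208 CPM in cluster 8. In the same order, Cacng5 was at 67.1, 47.8 and 64.8 CPM and Col11a1 at 21.8, 17.6 and 20.6 CPM. The others set cluster 9 apart, with Casz1 at 308.3, 2.58 and 3.94 CPM and Adarb2 at 166.8, 46.9 and 37.2 CPM. Ntng1, Pcdh8 and Th were likewise higher in cluster 9 than in clusters 7 and 8. These make-ups differed between mice of the same genotype, for example at 1.68 and 21.5% for cluster 6 in the knockout mice. Cluster 5 (250 nuclei, 82% doublet calls) held interneuron genes such as Nxph1 and Grik1. Clusters 10, 11 and 12 (102, 36 and 31 nuclei) were led by genes of oligodendrocytes (Mobp), astrocytes (Slc1a3) and microglia (Csf1r), with doublet calls for 100, 100 and 96.8% of their nuclei.

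**Figure D3:**
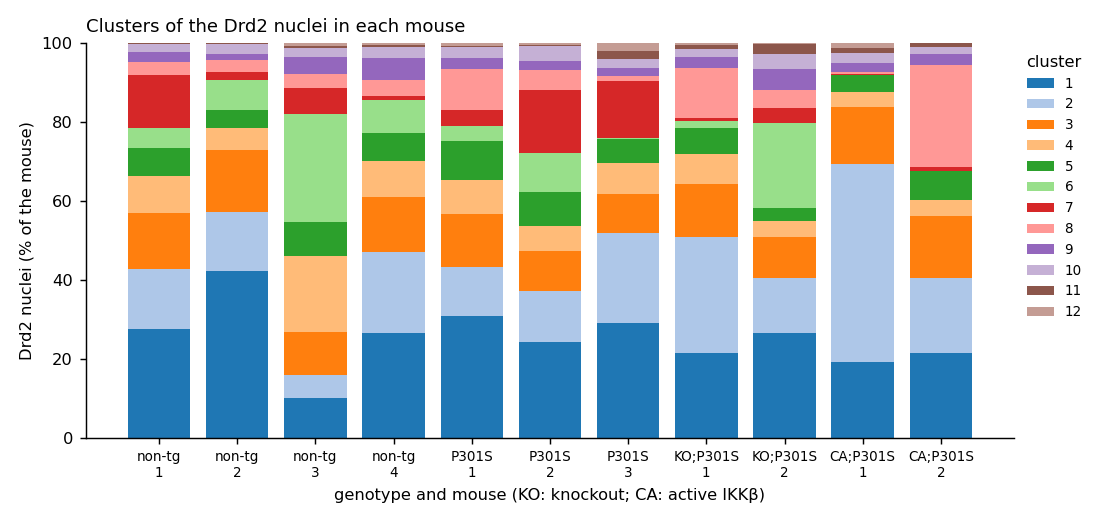
Make-up of the Drd2 nuclei of each mouse by cluster, in percent, with mice grouped by genotype. Cluster 2 takes 50.1% in active IKKβ mouse 1, cluster 6 takes 27.3% in non-transgenic mouse 3 and 0% in both active IKKβ mice.

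Genotype was then compared over the 11 mice with sums of all Drd2 nuclei. Among 12090 genes tested with edgeR, 1 was called between P301S and non-transgenic mice (0.00827%), none (0) between knockout and P301S mice, none (0) between active IKKβ and P301S mice, 1 between all 7 carriers and the 4 non-transgenic mice (0.00827%), and 1 between active IKKβ and knockout mice (0.00827%). At an unadjusted p under 0.05 there were 474, 841, 831, 663 and 767 genes, that is 3.92 to 6.96% of those tested. DESeq2 called 10 genes between active IKKβ and P301S mice and 0 between knockout and P301S mice. These comparisons share mice, so they are not independent of each other. The P301S and carrier contrasts hold the same 4 non-transgenic mice. The carrier contrast in these fits gives the P301S, knockout and active IKKβ groups equal weight, whatever their number of mice.

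The gene called between carriers and non-transgenic mice was Gm43049, a long intergenic non-coding RNA at chr3:140692038-140760704 on the minus strand (GRCm38, ENSMUSG00000105777). Drd2 nuclei of non-transgenic mice held 1, 0, 0 and 0 UMIs of it. Those of P301S mice held 45, 65 and 42, those of knockout mice 28 and 28, and those of active IKKβ mice 141 and 25. Every carrier was thus above every non-transgenic mouse. Per 1000000 UMIs, the 7 carriers together were at 12.6 (8.05 to 17.04 by mouse) and the 4 non-transgenic mice at 0.0891, a ratio of 141 with an exact 95% counting interval of 25.2 to 5597. The call held when each of the 11 mice was left out. In edgeR's test the adjusted p was 2.59e-06 for P301S mice and 9.66e-07 for all carriers. The RNA was found in 8.42 to 15.7% of the Drd2 nuclei of each carrier and in 1 of 1051 Drd2 nuclei of non-transgenic mice. The difference was not particular to these neurons. Drd1 nuclei held 94 UMIs in carriers and 1 in non-transgenic mice (ratio 37.6, interval 6.59 to 1502), and excitatory nuclei held 723 and 1 (ratio 430, interval 77.0 to 17026).

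Features within 1000000 bases of Gm43049 were then examined, a choice made after its values were seen. Of 10 features, 7 had a UMI in Drd2 nuclei. Gm32754 at chr3:140904998-140917459 (minus strand) had 0 UMIs in all 4 non-transgenic mice and 4 to 9 in each carrier, 42 in all. Likewise, 4930590L14Rik at chr3:140951876-140953247 (plus strand) had 0 UMIs in non-transgenic mice and 4 to 11 in each carrier, also 42 in all. Both are long intergenic non-coding RNAs and were at least 5.29-fold higher per 1000000 UMIs in carriers, set against a floor of 3 counts over the group. Both were too low for the main test, and without a limit on low counts their edgeR adjusted p-values were 0.00807 and 0.00664 between carriers and non-transgenic mice. The protein-coding neighbours did not share this. Unc5c, a netrin receptor gene, had 6797 and 15285 UMIs in non-transgenic mice and carriers (log2 fold change -0.30, edgeR adjusted p = 0.653). Stpg2 had 140 and 331 (-0.16, edgeR adjusted p = 0.954), and Pdha2 had 0 in both.

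**Figure D4:**
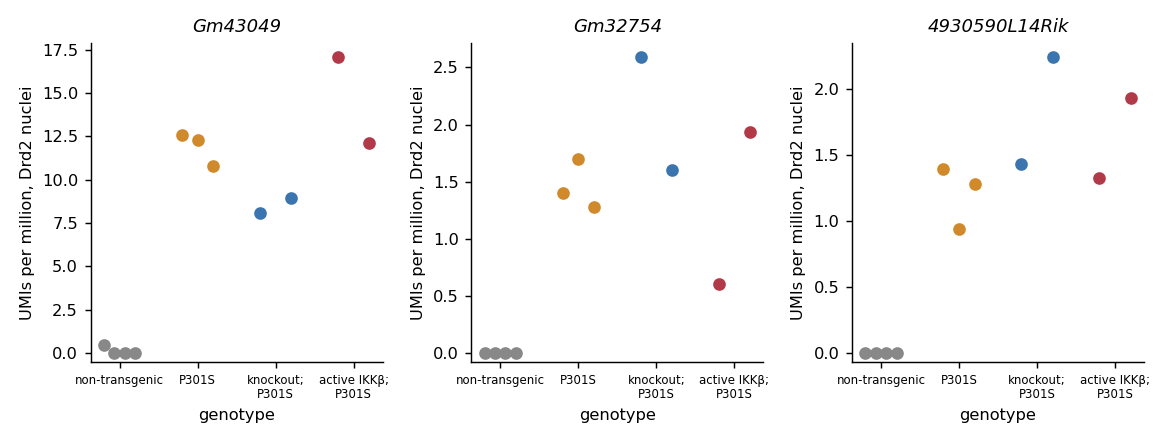
UMIs per 1000000 in Drd2 nuclei of Gm43049, Gm32754 and 4930590L14Rik for each mouse, grouped by genotype. Gm43049 lies between 8.05 and 17.04 per 1000000 in the 7 carriers, and the other 2 RNAs have 0 UMIs in the 4 non-transgenic mice.

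Between active IKKβ and knockout mice, Gm29682, an antisense RNA gene, was lower in active IKKβ mice. It was at 3.13 and 5.76 CPM in active IKKβ and at 19.0 and 14.3 CPM in knockout mice (log2 fold change -2.11 ± 0.318, edgeR adjusted p = 0.0392). Non-transgenic mice were at 11.6, 12.4, 7.59 and 8.26 CPM and P301S mice at 9.39, 8.87 and 8.58 CPM, between the 2 manipulated groups. The groups also differ in breeding line, and only the non-transgenic and P301S mice, found in both lines, inform a line term. The call was lost with line, age, the title number or doublet calls taken into account (adjusted p up to 0.999 by edgeR), with log2 fold changes of -1.76, -1.60, -2.11 and -2.22, and when any of 7 mice was left out (adjusted p of 0.0539 to 0.838), namely non-transgenic mouse 1, any P301S mouse, either knockout mouse or active IKKβ mouse 1.

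No further gene passed, and the genes of lowest p are given as values. Il1rap, the accessory protein of the interleukin-1 receptor, was at 58.4, 57.1, 58.7 and 42.3 CPM in non-transgenic mice, at 84.5, 85.6 and 86.1 CPM in P301S mice, at 54.2 and 41.5 CPM in knockout mice and at 59.2 and 62.4 CPM in active IKKβ mice. The P301S mice thus lay above all others. Its log2 fold change was 0.67 ± 0.125 for P301S against non-transgenic mice (edgeR adjusted p = 0.161) and -0.83 ± 0.152 for knockout against P301S mice (edgeR adjusted p = 0.406). The 2 values rest on the same 3 P301S mice. Myo5b, a myosin motor gene, was at 36.3 to 38.0 CPM in non-transgenic and at 52.3, 55.8 and 65.7 CPM in P301S mice (0.65 ± 0.113, edgeR adjusted p = 0.132). Rwdd3 (0.91) and Abtb2 (1.23) followed at an adjusted p of 1.0 by edgeR.

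For knockout against P301S mice, the lowest p-values after Il1rap were those of Cmss1 (0.84), Gm20275 (-0.93), Gm29237 (-1.22) and the chemokine gene Ccl27a (1.45), at edgeR adjusted p-values of 0.428 to 0.478. For active IKKβ against P301S mice, they were those of Banf2 (-1.25), Rapgef5 (-0.78), Gab2 (-0.84), A830082K12Rik (-0.97) and the phosphodiesterase gene Pde11a (-2.64), all at an edgeR adjusted p of 0.354. In clusters held by every mouse, A830082K12Rik was at 0.16. Pde11a was at 15.4, 21.7 and 32.9 CPM in P301S and at 3.00 and 5.76 CPM in active IKKβ mice. It is a leading gene of cluster 7, which made up 4.04, 15.9 and 14.4% of the Drd2 nuclei of P301S mice and 0.253 and 1.12% of those of active IKKβ mice. The part of this make-up in the difference was not tested. For active IKKβ against knockout mice, Exph5 (1.30), Vat1l (0.82), Gm10600 (1.28) and Gm48677 (1.16) followed Gm29682, at edgeR adjusted p-values of 0.204 to 0.249.

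For all carriers against non-transgenic mice, Gm2824 (-1.13), Banf2 (-0.74), Nkain3 (-0.51) and the metabotropic glutamate receptor gene Grm3 (-0.38) had the lowest p-values after Gm43049, at an edgeR adjusted p of 0.579. Mouse Mapt, the gene of endogenous tau, was at 314 to 386 CPM in non-transgenic mice and 324 to 399 CPM in carriers (0.13 ± 0.0868, edgeR adjusted p = 0.927). Cx3cr1, at 3.55 to 6.90 CPM in non-transgenic and 4.34 to 7.60 CPM in carrier mice, gave 0.20 ± 0.253 and, being a microglial gene, stands here for RNA from other cells. Summed over 7 microglial markers, Drd2 nuclei were at 17.8 to 34.1 CPM in non-transgenic mice and 24.2 to 55.7 CPM in carriers, with 5 to 7 of the 7 markers detected. Summed over 8 excitatory markers they were at 96.5 to 183 and 93.7 to 208 CPM, over 7 oligodendrocyte markers at 148 to 221 and 173 to 243 CPM, and over 7 astrocyte markers at 906 to 1185 and 1002 to 1334 CPM. Over 6 endothelial and mural markers the sums did not overlap, at 1.75 to 2.09 and 3.08 to 5.46 CPM, with 2 to 4 and 3 to 6 of them detected. Sums this low rest on few UMIs per mouse and lie near the floor. Over single genes, every carrier was higher for 0.455% of all genes tested. The part of RNA from other cells in the genotype results was not tested.

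The lists of neuronal genes were described in the contrast of all carriers against non-transgenic mice, where none (0) of their members was called. Indirect pathway genes had a median log2 fold change of 0.13 over 9 tested members, against -0.00505 over all genes. Adora2a was at 126 to 183 CPM in non-transgenic and 128 to 191 CPM in carrier mice, and Penk at 148 to 252 and 162 to 212 CPM, so that these defining genes overlapped between genotypes. Oprd1 had the lowest p of that list (0.33 ± 0.0993, edgeR adjusted p = 0.611). Shared projection neuron genes had a median of 0.101, with 18 of 22 above 0, led by Ppp1r1b (0.41 ± 0.114, edgeR adjusted p = 0.579) and Rasd2 (0.32). Direct pathway genes had a median of 0.0511, with Reln (0.18) and Sfxn1 (-0.10) of lowest p.

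Medians of the other lists lay close to that of all genes or rested on few members. They were 0.0277 for dopamine and cyclic AMP signalling (43 genes; Adcy1 0.32 and Rgs2 -0.66 of lowest p), -0.0804 for modulatory receptors (24 genes; Grm3 -0.38 and Grm7 -0.26), -0.0653 for glutamate receptors and scaffolds (27 genes; Grik5 0.29 and Grik2 -0.26) and -0.0788 for GABA genes (19 genes; Gabra2 -0.34 and Gabrb1 -0.23). They were 0.00213 for ion channels (34 genes; Ryr2 0.27 and Kcnq5 -0.30), 0.0528 for tau and its kinases (23 genes; Map1a 0.31 and Ppp2r2b -0.17) and 0.0530 for NF-κB and cytokine response (14 of 35 genes tested; Ifnar2 -0.42 and Rel 0.44). Among compartment lists they were -0.180 for patch (7 genes; Lypd1 -0.95 and Kremen1 0.42), -0.190 for matrix (8 genes; Sv2b -0.22 and Gda -0.26), 0.197 for dorsal (4 genes; Cnr1 0.37 and Coch 0.33), -0.756 for ventral (5 genes; Trhr -1.55 and Crym -0.79) and 0.161 for hybrid genes (6 genes; Adarb2 0.43 and Cacng5 0.69). Of the 5 ventral genes tested, 2 were above 0 and 3 below. Cluster 6, which held the most Trhr, made up 4.95 to 27.3% of the Drd2 nuclei of non-transgenic mice and 0 to 21.5% of those of carriers, and its part in these values was not tested.

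Activity-induced genes had the largest median shift of the lists with over 8 tested genes. Of 21 tested genes, none (0) was called, 13 had an unadjusted p under 0.05, and all 21 had a log2 fold change below 0 in carriers, against 51.2% of all genes tested. The 21 genes were measured in the same mice and are not independent observations, so this count measures no spread between mice. The median was -0.646, against -0.00505 over all genes. For P301S against non-transgenic mice it was -0.393, with 18 of 21 genes below 0. In that contrast, 6 had an unadjusted edgeR p under 0.05. Against P301S mice, it was -0.762 for knockout (18 of 21 below 0) and -0.113 for active IKKβ mice (15 of 21). Fos was at 3.12, 6.21, 4.83 and 2.75 CPM in non-transgenic mice. It was at 1.71, 2.07 and 1.96 CPM in P301S, 0.585 and 1.27 CPM in knockout and 1.38 and 0 CPM in active IKKβ mice. All 7 carriers thus lay below all 4 non-transgenic mice, though Fos did not pass over all genes (-1.74 ± 0.411 on the log2 scale, adjusted p = 0.579 by edgeR). Egr4 was at 6.69, 7.99, 8.29 and 7.76 CPM in non-transgenic mice, at 1.14, 5.85 and 2.70 CPM in P301S, at 0.585 and 2.54 CPM in knockout and at 4.00 and 1.92 CPM in active IKKβ mice, again without overlap (-1.54 ± 0.355, edgeR adjusted p = 0.579). Such a lack of overlap with carriers below was seen for 2 of the 21 genes (9.52%) and for 30 of 12095 genes over the whole table (0.248%).

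Other members overlapped. Junb was at 8.48, 26.6, 10.4 and 31.0 CPM in non-transgenic mice and at 2.56 to 10.2 CPM in carriers (log2 fold change -1.80 ± 0.437). Npas4, an activity-dependent transcription factor gene, was at 14.7 to 37.6 and 5.27 to 16.2 CPM (-1.23 ± 0.339), and Arc at 6.69 to 18.9 and 1.76 to 10.3 CPM (-1.25 ± 0.355). At the other end, Nr4a3 (-0.10), Per1 (-0.18) and Crem (-0.30) had little difference. Counts behind Fos and Egr4 are small, with 7, 21, 7 and 11 Fos UMIs in non-transgenic mice and 0 to 11 in carriers. Summed over the list, Drd2 nuclei were at 272, 311, 199 and 369 CPM in non-transgenic mice and at 157 to 253 CPM in carriers, and only non-transgenic mouse 3 lay within the range of the carriers. The same sum was at 337 to 512 and 214 to 686 CPM in Drd1 nuclei and at 365 to 522 and 287 to 509 CPM in excitatory nuclei. In excitatory nuclei too, all carriers but 1 (P301S mouse 3) lay below the non-transgenic mice, with medians of 334 and 404 CPM. Knockout mouse 1 was the lowest mouse in Drd2, Drd1 and excitatory nuclei (157, 214 and 287 CPM). P301S mouse 3 was the highest carrier in each (253, 686 and 509 CPM). All P301S, knockout and active IKKβ mice count as carriers here, so Cre, and with it the switched IKKβ alleles, is present in 4 of the 7. In the fold changes, the knockout and active IKKβ groups each weigh as much as the P301S group.

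**Figure D5:**
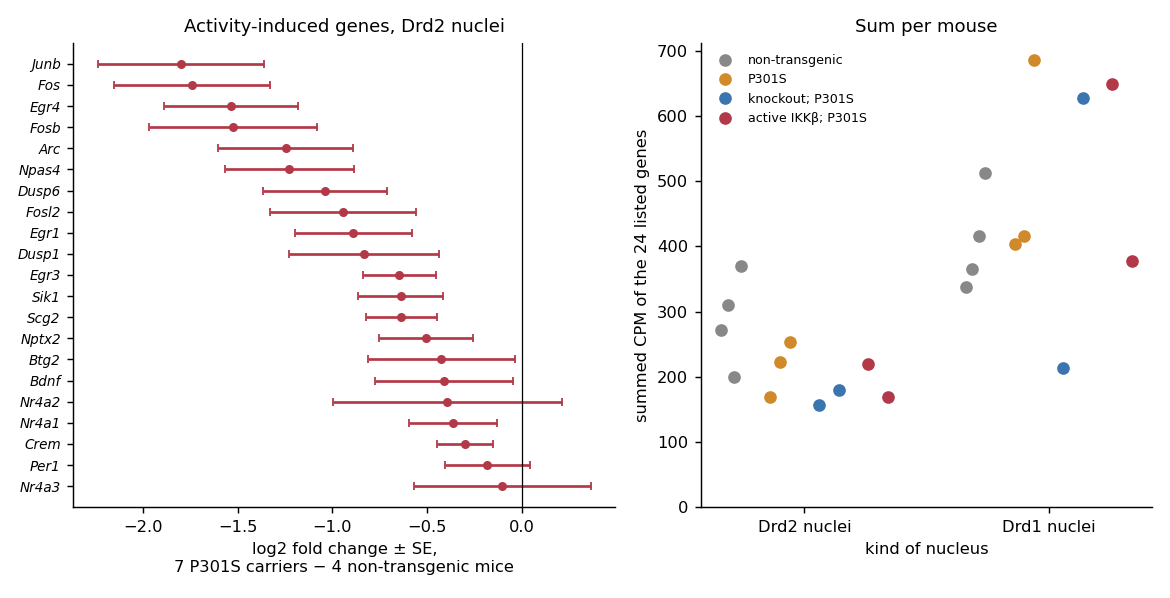
Activity-induced genes by log2 fold change ± SE in Drd2 nuclei, 7 P301S carriers against 4 non-transgenic mice (left). The right panel gives the summed CPM of the 24 listed genes per mouse in Drd2 and Drd1 nuclei, with genotypes marked. All 21 tested genes lie below 0 on the left. On the right, sums in Drd2 nuclei are 157 to 253 CPM in carriers and 199 to 369 CPM in non-transgenic mice.

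Whether a genotype difference was larger in Drd2 than in Drd1 nuclei was tested within mice on 11005 genes. Between carriers and non-transgenic mice, 3 genes were called (0.0273%), all with a more negative effect in Drd2 nuclei, and all were activity-induced genes. They were Arc (log2 difference -1.68 ± 0.297, edgeR adjusted p = 0.0345), Egr4 (-2.03 ± 0.396, edgeR adjusted p = 0.041) and Egr1 (-1.10 ± 0.201, edgeR adjusted p = 0.041). For Egr1, the ratio of the level in Drd2 to that in Drd1 nuclei was 0.453, 0.583, 0.259 and 0.536 in non-transgenic mice and 0.161 to 0.350 in carriers. For Arc it was 0.392 to 0.596 and 0.0993 to 0.562, and for Egr4 0.383 to 3.03 and 0.0880 to 0.283, of which Egr4 alone did not overlap. In Drd1 nuclei, Arc was at 14.7 to 41.7 CPM in non-transgenic mice (median 28.8) and at 3.18 to 72.6 CPM in carriers (median 26.6), and the ranges overlapped. Egr4 was there at 2.81 to 21.2 CPM (median 12.5) and 3.97 to 33.1 CPM (median 25.9). Egr1 had medians of 80.5 and 82.7 CPM in Drd1 nuclei. The part of the Drd1 levels in these differences was not tested. Drd1 levels rested on few nuclei, with 1 Egr4 UMI in non-transgenic mouse 3. These 3 calls were lost when doublet calls were left out or when DESeq2 was used (0 genes in each), and that of Egr4 also with breeding line in the model (adjusted p = 0.0588 by edgeR). In these alternatives the log2 differences were -1.75 to -1.46 for Arc, -2.18 to -2.04 for Egr4 and -1.13 to -0.98 for Egr1, near those of the fit with all nuclei. Leaving out a mouse ended the call of Arc for 7 of the 11 mice (adjusted p of 0.0626 to 1.0 by edgeR), that of Egr4 for 6 (0.0626 to 0.587) and that of Egr1 for 8 (0.0569 to 0.328), while the difference stayed below 0 in each case. That of Arc ranged from -1.82 to -0.97, the latter without knockout mouse 2. All 3 were lost without non-transgenic mouse 1 or 4, P301S mouse 1 or 3, knockout mouse 2 or active IKKβ mouse 1, Arc and Egr1 also without non-transgenic mouse 2, and Egr1 also without P301S mouse 2.

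Sorcs3, a sorting receptor gene of neurons, was called between P301S and non-transgenic mice (0.82 ± 0.126, edgeR adjusted p = 0.00237; 1 gene, 0.00909%) and in the opposite direction between knockout and P301S mice (-1.01 ± 0.147, edgeR adjusted p = 0.00107; 1 gene, 0.00909%). The 2 contrasts share the P301S mice. In Drd2 nuclei it was at 439, 387, 561 and 444 CPM in non-transgenic, 476, 522 and 445 CPM in P301S, 300 and 382 CPM in knockout and 278 and 371 CPM in active IKKβ mice. In Drd1 nuclei it was at 219, 303, 383 and 338 CPM, 166, 206 and 177 CPM, 219 and 311 CPM, and 144 and 215 CPM. The ratio of Drd2 to Drd1 nuclei was 2.52 to 2.86 in the 3 P301S mice, above 1.28 to 2.01 in non-transgenic, 1.23 to 1.37 in knockout and 1.73 to 1.93 in active IKKβ mice. In Drd2 nuclei alone the P301S effect was 0.07 ± 0.131, so the low level in Drd1 nuclei of P301S mice made up most of the first difference. The first call was lost without P301S mouse 1 (adjusted p = 0.0729 by edgeR) or P301S mouse 2 (0.0566), and the second without knockout mouse 2 (0.179).

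Between active IKKβ and P301S mice, Col11a1, a collagen gene (-1.86 ± 0.321, edgeR adjusted p = 0.0164), and Sulf1, a heparan sulfate editing enzyme gene (-1.14 ± 0.214, edgeR adjusted p = 0.0358), were called (2 genes, 0.0182%). The ratio of Sulf1 in Drd2 to Drd1 nuclei was 0.391 and 0.240 in active IKKβ mice and 0.552 to 0.982 in the other 9, and that of Col11a1 was 0.0985 and 0.134 against 0.263 to 0.533. Neither ratio overlapped between these mice. Sulf1 was detected in 77.1% of the nuclei of cluster 6 and 21.5% of other Drd2 nuclei, and that cluster had 0 nuclei in both active IKKβ mice. Col11a1 belongs to the hybrid list and was also highest in cluster 6, at 35.9 CPM. On the Drd1 side, active IKKβ mouse 2 was the highest of all mice, with Col11a1 at 102 CPM (P301S mice 26.6 to 30.9) and Sulf1 at 160 CPM (82.6 to 108), while its Col11a1 level in Drd2 nuclei, 13.8 CPM, lay within those of P301S mice (10.4 to 14.2). The part of the cluster's absence and of the Drd1 levels in these differences was not tested, and both calls were lost with DESeq2 (adjusted p of 0.158 and 0.405) and with breeding line in the model (edgeR adjusted p of 0.383 and 0.223). The log2 differences under the alternatives that kept all mice stayed at -2.14 to -1.56 for Col11a1 and -1.20 to -1.14 for Sulf1. Without P301S mouse 2 or active IKKβ mouse 2 neither passed, Col11a1 was further lost without active IKKβ mouse 1, and Sulf1 without non-transgenic mouse 2 or P301S mouse 3, at edgeR adjusted p-values of 0.0506 to 1.0.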

How the data were processed

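Nuclei of frozen cortex were profiled in 11 mice. Per the labels and the study's methods, the authors sorted DAPI-stained nuclei, prepared 10x Chromium 3′ libraries, and counted reads on mm10 with unspliced transcripts included, using Cell Ranger 3.1.0 per the submitters' processing notes. Raw UMI counts per gene and barcode were deposited by the authors for each mouse as whole numbers, not normalised, for 114118 barcodes. Of these, 23 had more than 8000 genes, 1556 had over 5% mitochondrial UMIs, none (0) had fewer than 300 genes, and 112539 were kept. Seurat 3.0, which the notes also name, was not used here. Of 31053 feature identifiers, 31011 matched GENCODE M21 (GRCm38), the source of gene coordinates, and promoter windows came from RefSeq on GRCm38.p6.

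Drd2 nuclei were selected by the rule given above, and excitatory nuclei by at least 3 UMIs of Slc17a7 and at most 1 of Rgs9 and Rarb. Raw counts were summed per mouse and tested with edgeR 4.0.16 (filterByExpr, TMM, robust quasi-likelihood fit with 1 term per genotype, R 4.3.3). CPM use the TMM factors, except the sums over marker lists and activity-induced genes and the values per 1000000 UMIs of Gm43049 and its neighbours, which use library totals. A gene was called where its p after Benjamini-Hochberg adjustment was under 0.05 and its log2 fold change lay beyond 0.1 in either direction, with Drd2, Drd1, Rgs9, Rarb and Slc17a7 left out of calls and adjustment. Drd2 and Drd1 nuclei were compared with mouse as a block, and the genotype terms of that difference were tested in the same kind of fit. SE are those of the log2 fold change. The common biological coefficient of variation was 12.6% in the genotype fit. Shares were compared by exact two-sided permutation tests over mice. Intervals of ratios are exact (Clopper-Pearson, 95%) and cover counting error only, as does the floor of 3 counts. P-values measure the spread between mice, 1 library each.

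Named genes were, for each genotype contrast, up to 20 called genes in order of p, together with the 5 genes of lowest p. All genes called for a genotype effect that differed between Drd2 and Drd1 nuclei were named. Called list members, or else the 2 of lowest p, were added. Further ones were the 12 largest differences in each direction between Drd2 and Drd1 nuclei (the same way in every mouse and over 20 CPM). Both pathway lists, Ikbkb, Cx3cr1, Prnp and Mapt completed the choice. Neighbours of Gm43049 and further activity-induced genes were chosen after values were seen. The members and lists were chosen with earlier results of these data known.

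Doublets were scored per library from simulated pairs and marked at a rate that grew with the number of barcodes, which gave 9474 nuclei. Drd2 nuclei were clustered with scanpy 1.11.5 (2000 variable genes, 15 components, 20 neighbours, Leiden resolution 0.4). DESeq2 1.42.0, other normalisation, filters, covariates, gates, thinning of each nucleus to 5000 UMIs, doublet removal and leaving out each mouse served as alternatives. The stricter gate asked for at least 3 UMIs of the receptor and at most 1 of the other, and the clean gate for 0 UMIs of Slc17a7 and at most 1 each of glial genes that include Mbp, Slc1a2 and Csf1r. Values of some genes are not reported here. Scripts were tested on simulated data.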

Additional observations from a re-analysis of the deposited data

Results flagged for a closer look

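Within a genotype of 4 mice, 58 values, those of named genes and of the shares of Drd2 nuclei, were screened for a mouse far from the other 3, and 7 were marked. Chance marks about 1 in 20 such groups. Non-transgenic mouse 4 lay apart for Cmss1 (190 CPM, others 138 to 146), Il1rap (42.3 CPM, others 57.1 to 58.7) and Mapt (386 CPM, others 314 to 316). Non-transgenic mouse 3 lay apart for Coch (5.52 CPM, others 16.95 to 19.2), Gab2 (128 CPM, others 80.6 to 87.0) and Gda (182 CPM, others 117 to 126). That mouse also had 27.3% of its Drd2 nuclei in cluster 6 and 5.76% in cluster 2, of which Coch is a leading gene. The part of this make-up in its values was not tested. For Gm43049, non-transgenic mouse 1 had 0.446 CPM, from 1 UMI, and the others 0.

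Genotype effects that differed between Drd2 and Drd1 nuclei are those of Sorcs3, at 0.82 for P301S and -1.01 for knockout, of Sulf1 and Col11a1, at -1.14 and -1.86 for active IKKβ, and of Egr4, Arc and Egr1, at -2.03, -1.68 and -1.10 for all carriers (log2 differences, edgeR adjusted p under the threshold of 0.05 in each). Only the 2 Sorcs3 calls held under each of the 3 alternatives to this fit that kept all mice, which were DESeq2, removal of doublet calls and a term for breeding line.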

How the results depend on the processing

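Gm43049 was called between P301S and non-transgenic mice, and between all carriers and non-transgenic mice, when each of the 11 mice was left out and under all other alternatives run (14 and 13). The 21 activity-induced genes kept a negative median (-0.910 to -0.562), with 15 of 16 tested genes below 0 under the clean gate, 20 of 21 without non-transgenic mouse 1 or knockout mouse 2, 19 of 21 without non-transgenic mouse 4 and every tested gene under the other alternatives. Counts of called genes depended on the filter and the samples. For active IKKβ against P301S mice they were 10 with DESeq2, 128 with no filter on low counts, 2 with age and 18 with only these groups in the fit, and 0 to 18 when a mouse was left out (18 without non-transgenic mouse 4). For P301S against non-transgenic mice they were 18 with no filter and 2 with doublet calls left out, the clean gate, thinning or only clusters with few doublet calls. For knockout against P301S mice they were 26 with no filter, 2 with breeding line, 4 with only these groups and 0 to 2 when a mouse was left out (2 without non-transgenic mouse 4). For all carriers they were 60 with no filter and 3 with breeding line. For active IKKβ against knockout mice they were 90 with no filter, 11 with only these groups, 4 in clusters held by every mouse, 0 with line, age, the title number, doublet calls left out, the stricter gate, the clean gate or clusters with few doublet calls, and 0 to 7 when a mouse was left out (7 without active IKKβ mouse 2). Between Drd2 and Drd1 nuclei there were 579 without the replicate block of the mouse, 511 under the stricter gate and 977 to 1178 when a mouse was left out.

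For differences between Drd2 and Drd1 nuclei in the genotype effect, DESeq2 called 0 for active IKKβ and 0 for all carriers. Without doublet calls there were 2 for P301S, 3 for knockout, 6 for active IKKβ and 0 for all carriers, and with breeding line 0 for active IKKβ. Leaving out a mouse gave 0 to 3 for P301S, 0 to 2 for knockout, 0 to 31 for active IKKβ (31 without active IKKβ mouse 1) and 0 to 11 for all carriers (11 without non-transgenic mouse 3). Limiting the nuclei to clusters, and the removal of doublet calls and the line term in the comparison with Drd1 nuclei, were chosen after the data were seen. The cause of these changes was not tested.

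The following log2 fold changes took the opposite direction. With breeding line as a term, Ikbkb was at 0.0548 for knockout, -0.14 for active IKKβ and -0.20 for active IKKβ against knockout, Mapt at -0.0475 and Cx3cr1 at -0.12 for active IKKβ, and Cx3cr1 at -0.36 for active IKKβ against knockout (-0.31 with age). With the title number as a replicate block, Cx3cr1 was at -0.0049 for P301S and the call of Gm29682 was lost. Without doublet calls, Cx3cr1 was at -0.16 for P301S and Sfxn1 at 0.0792 for all carriers. Under the clean gate, Cx3cr1 was at -0.0939 for knockout and -0.0407 for active IKKβ, Sfxn1 at 0.24 for all carriers and Mapt at 0.0077 for active IKKβ against knockout. With thinning, Ikbkb was at 0.0150 and Cx3cr1 at -0.58 for knockout, and for all carriers Cx3cr1 was at -0.0301 and Sfxn1 at 0.0221. In clusters with few doublet calls, Cx3cr1 was at -0.0269 for P301S and Sfxn1 at 0.0437 for all carriers. In clusters held by every mouse, A830082K12Rik was at 0.16 for active IKKβ, Cx3cr1 at -0.0672 for active IKKβ against knockout, and Ikbkb at 0.0018, Sfxn1 at 0.0691 and Adarb2 at -0.12 for all carriers. Scn1a between Drd2 and Drd1 nuclei was at -0.0019 under the stricter gate. With the rule applied after thinning to 2000 UMIs, the share of Drd2 among Drd1 and Drd2 nuclei differed by -1.34 percentage points for P301S, 3.47 for knockout and 1.32 for active IKKβ. These values rest on 0 to 11 Drd1 nuclei per mouse.

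When a mouse was left out, ranges that crossed 0 were, for P301S, -0.242 to 0.0787 (Ikbkb), -0.0222 to 0.131 (Mapt) and -0.12 to 0.32 (Cx3cr1). For knockout they were -0.269 to 0.0508 (Ikbkb) and -0.265 to 0.297 (Cx3cr1), for active IKKβ -0.0556 to 0.266 (Ikbkb), -0.0190 to 0.159 (Mapt) and -0.116 to 0.425 (Cx3cr1), for active IKKβ against knockout -0.17 to 0.44 (Cx3cr1), and for all carriers -0.199 to 0.0482 (Ikbkb) and -0.0868 to 0.469 (Coch). The difference in the share of Drd2 nuclei ranged from -2.16 to 3.58 percentage points for active IKKβ, and that among Drd1 and Drd2 nuclei from -0.79 to 1.80 for all carriers.

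Whether title numbers pair the mice could not be decided. Deviations from the genotype means correlated at -0.312 to 0.274 over 22 pairs with the same number (median 0.0448) and at -0.274 to 0.367 over 22 with different numbers (median -0.0394). In a group of 2 mice the deviations are mirror images, which forces correlations of opposite sign for the same and the other number. Within the active IKKβ line, non-transgenic and active IKKβ mice of the same number had the same age (10.85 and 9.8 months). Excluding mice with fewer than 50 Drd2 nuclei removed none. Depth limits low genes, since the smallest sum of a mouse was 1435060 UMIs.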

Other observations

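Of the Drd2 nuclei, 13 held 2 or more Drd1 UMIs as well, and 1 nucleus outside them had equal counts of both receptors and was assigned to neither kind. Drd3, the D3 receptor gene, was a leading gene of cluster 8, where it was detected in 50.2% of nuclei against 8.07% of other Drd2 nuclei. Cluster 9 combined Drd2 with the direct pathway gene Tac1 (37.5% of its nuclei, against 2.27% elsewhere), with Htr7 in 65.2% and with the angiotensin receptor gene Agtr1a in 40.2%. Its share was 1.54 to 5.74% of the Drd2 nuclei of each mouse. Of the indirect pathway genes, Penk was at 31.7 CPM in cluster 9, against 95.6 to 242 CPM in the other clusters. Oprd1 was at 11.8 CPM, against 60.9 to 132 CPM. Ptprm (274 CPM) was also lowest there, whereas Adora2a (115 CPM) and the other members of the list were not. Among all genes above the limit on low counts, non-transgenic mice and carriers did not overlap in Drd2 nuclei for 30 of 12095 genes with every carrier lower (0.248%) and for 55 with every carrier higher (0.455%).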
